A study of Mus musculus with 12 samples.

Results

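The TGF-beta and BMP genes examined here are a ligand (Tgfb1), its signalling receptors (Tgfbr1, Tgfbr2), a BMP receptor of endothelium (Acvrl1), a co-receptor (Eng), signal-carrying SMAD proteins (Smad1, Smad5), inhibitory SMAD proteins (Smad6, Smad7) and a target gene (Id1). These 10 genes were chosen for their known roles in yolk sac vessels, out of 18193 genes on the array. The choice was made with earlier results of these data known, so shares of called members only describe these genes. All of their probe sets were taken, which came to 22 of 45037. Of these, 18 had a mean above that of the median probe set, and each gene had at least 1 such probe set.

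Whole yolk sacs of mouse embryos of 2 stages, E9.0 and E10.5 (E for embryonic day), were profiled on Affymetrix expression arrays. The groups were wild type (Hypb+/+) at E9.0, knockout (Hypb-/-) at E9.0, wild type at E10.5 and knockout at E10.5, with 3 arrays in each and 12 in all. Every group had the strain 129Sv/C57BL/6, and every array was hybridised with a pool of 4 yolk sacs of 1 genotype, so the values do not show how single embryos differ. Hypb is an older name of Setd2, which encodes the enzyme that trimethylates lysine 36 of histone H3. The knockout was not limited to vessels, and the labels do not say which part of the gene was deleted. Values are log2 expression values made by the authors with RMA. An array gives no read depth, and the number of arrays limits the precision.

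Setd2 itself read 9.08, 9.03 and 8.83 on the E9.0 wild type arrays and 7.54, 7.99 and 7.53 on the knockout arrays. At E10.5 it read 8.77, 8.70 and 8.66 in the wild type and 7.77, 7.81 and 8.07 in the knockout. Knockout arrays lay below all wild type arrays at both stages, by 1.29 and 0.83 on average (limma, adjusted p = 0.00331 and 0.0063). The yolk sac endoderm marker Afp read between 13.71 and 14.23 on the 12 arrays, and the embryonic globin Hba-x between 13.63 and 14.07. All 14 endothelial markers measured had a mean above the median probe set. The tissue was not sorted, so a lower reading can come from fewer cells of a type or from less RNA per cell, and the arrays cannot tell these apart. Replicate 3 of both genotypes differed from replicates 1 and 2 in the spiked control RNAs at each stage. Values from replicates 1 and 2 and from replicate 3 alone are therefore given beside called changes of members and named pathway genes. The replicate 3 arrays of the 2 stages also differed from each other in these controls. A stage change from replicate 3 sets 1 array against 1 array, and stage and batch cannot be told apart in it.

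TGF-beta and BMP ligands are secreted dimers that bring together type I and type II receptor kinases on the cell surface. The type I receptor phosphorylates carrier SMAD proteins, which join SMAD4 and enter the nucleus: TGFBR1 acts mainly on SMAD2 and SMAD3, and ACVRL1, helped by endoglin, on SMAD1 and SMAD5. Inhibitory SMADs, themselves induced by the signal, block the receptors. In mice, loss of Tgfb1, Tgfbr1, Tgfbr2, Acvrl1, Eng or Smad5 is known to leave yolk sac vessels malformed.

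Promoter windows were found for 7 of the 10 genes, 10 windows in all, from 250 bases before to 50 after the annotated start (RefSeq, GRCm38.p6). Shown here are those of 3 genes that fell from E9.0 to E10.5 in the wild type: Tgfb1 (chr7:25686752-25687051, + strand), Eng (chr2:32646345-32646644, + strand) and Smad6 (chr9:64022010-64022309, - strand). Capitals mark matches, on either strand, to GTCTAGAC, the palindrome bound by SMAD3 and SMAD4, or to CAGAC, the core of the shorter SMAD box.
Tgfb1: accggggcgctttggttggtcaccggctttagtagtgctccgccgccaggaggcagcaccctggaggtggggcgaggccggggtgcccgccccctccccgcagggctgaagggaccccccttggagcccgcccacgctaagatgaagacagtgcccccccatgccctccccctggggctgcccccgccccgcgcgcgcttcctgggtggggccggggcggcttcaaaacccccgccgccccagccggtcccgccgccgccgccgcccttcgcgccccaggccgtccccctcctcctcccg
Eng: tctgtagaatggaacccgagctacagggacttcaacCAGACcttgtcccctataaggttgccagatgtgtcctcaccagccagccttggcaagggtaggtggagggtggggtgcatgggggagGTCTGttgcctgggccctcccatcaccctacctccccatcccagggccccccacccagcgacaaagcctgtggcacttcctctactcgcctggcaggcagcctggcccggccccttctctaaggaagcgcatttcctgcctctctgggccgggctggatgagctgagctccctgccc
Smad6: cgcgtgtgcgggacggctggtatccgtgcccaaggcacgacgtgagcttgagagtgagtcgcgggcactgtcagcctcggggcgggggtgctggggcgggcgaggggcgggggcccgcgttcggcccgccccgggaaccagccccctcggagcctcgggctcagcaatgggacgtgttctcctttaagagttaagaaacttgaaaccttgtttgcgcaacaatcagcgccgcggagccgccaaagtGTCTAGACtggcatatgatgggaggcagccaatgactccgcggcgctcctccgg

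The Smad6 window held 1 GTCTAGAC, which began 4 bases before the start, and no other of the 10 windows held it. Among all 32851 windows of this length, 70 held it (0.213%). Eng held 2 CAGAC matches and Tgfb1 held no match to either. CAGAC lay in 4 of the 10 windows (1 each of Eng, Smad5, Tgfbr1 and Tgfbr2), and in 49.6% of all windows. GGCGCC, the GC-rich element bound by BMP SMADs, lay in 3 of the 10 (2 overlapping windows of Smad5 and 1 of Tgfbr1), and in 11.9% of all windows. These 3 motifs do not contain each other. The matches are descriptions of sequence and no binding was measured.

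More of these genes changed with embryonic stage than with genotype, and this was so for all genes on the array as well. From E9.0 to E10.5 in the wild type, Tgfb1, Eng, Smad6 and Smad7 fell by between 0.40 and 0.80 on the log2 scale and Smad5 rose by 0.62. Here a gene is read on its probe set with the highest mean, and a change is called at an adjusted p under 0.05 (limma, Benjamini-Hochberg over all 45037 probe sets). So 5 of 10 genes were called, 1 higher and 4 lower, where 19.3% of all genes were called, 11.9% higher and 7.34% lower. That count was 3 from replicates 1 and 2 alone and without array 1 or 2 of either wild type group, and 2 without array 3 of either. Their median change was -0.19, and that of all genes 0.03. In the knockout Smad5 rose and Smad1, Smad6 and Smad7 fell, 4 of 10 genes with a median of -0.12, where 19.8% of all genes were called, 12.5% higher and 7.38% lower, with a median of 0.03. That count was 2 without E9.0 knockout array 3 and with only the knockout groups in the fit. Over all probe sets, 1 of 22 rose and 6 fell in the wild type and 1 rose and 4 fell in the knockout (14.4% of all probe sets were called in each, 7.73% higher and 6.62% lower in the wild type, 8.04% and 6.36% in the knockout). The stages did not overlap for 6 of 10 genes in the wild type and 5 in the knockout, where 40% and 34.6% of all genes did not.

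Between genotypes, 0 of 10 genes and 0 of 22 probe sets were called at E9.0, where 0.539% of genes and 0.406% of probe sets were called. At an unadjusted p under 0.05 there were 0 genes and 1 probe set, where 2059 of all 18193 genes and 4230 of all 45037 probe sets were. The 10 changes ran from -0.15 to 0.23, with a median of 0.00, and their 95% intervals lay between -0.60 and 0.58. At E10.5, 0 of 10 genes were called (5.18% of all genes), with 1 at an unadjusted p under 0.05 (3558 of all 18193 genes). The changes ran from -0.28 to 0.41 with a median of 0.05 and intervals between -0.56 and 0.75. Over the probe sets 2 of 22 were called at E10.5 (3.64% of all probe sets; 1.95% higher), 1 of Eng and 1 of Smad5, both higher in the knockout and neither the brightest of its gene. That count was 3 with a batch term for replicate 3 and 0 to 2 without 1 array, and the count of genes was 2 with the mean of a gene's probe sets. The genotypes did not overlap for 0 of 10 genes at E9.0 (18% of all genes) and for 1, Smad5, at E10.5 (22.8% of all genes). For the difference between the stages in the knockout effect, limma called 0 of 10 genes (0.0934% of all genes) and 0 of 22 probe sets (0.0533%). For this difference 0 genes and 1 probe set had an unadjusted p under 0.05, where 1442 of all 18193 genes and 2996 of all 45037 probe sets did.

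**Figure D1:**
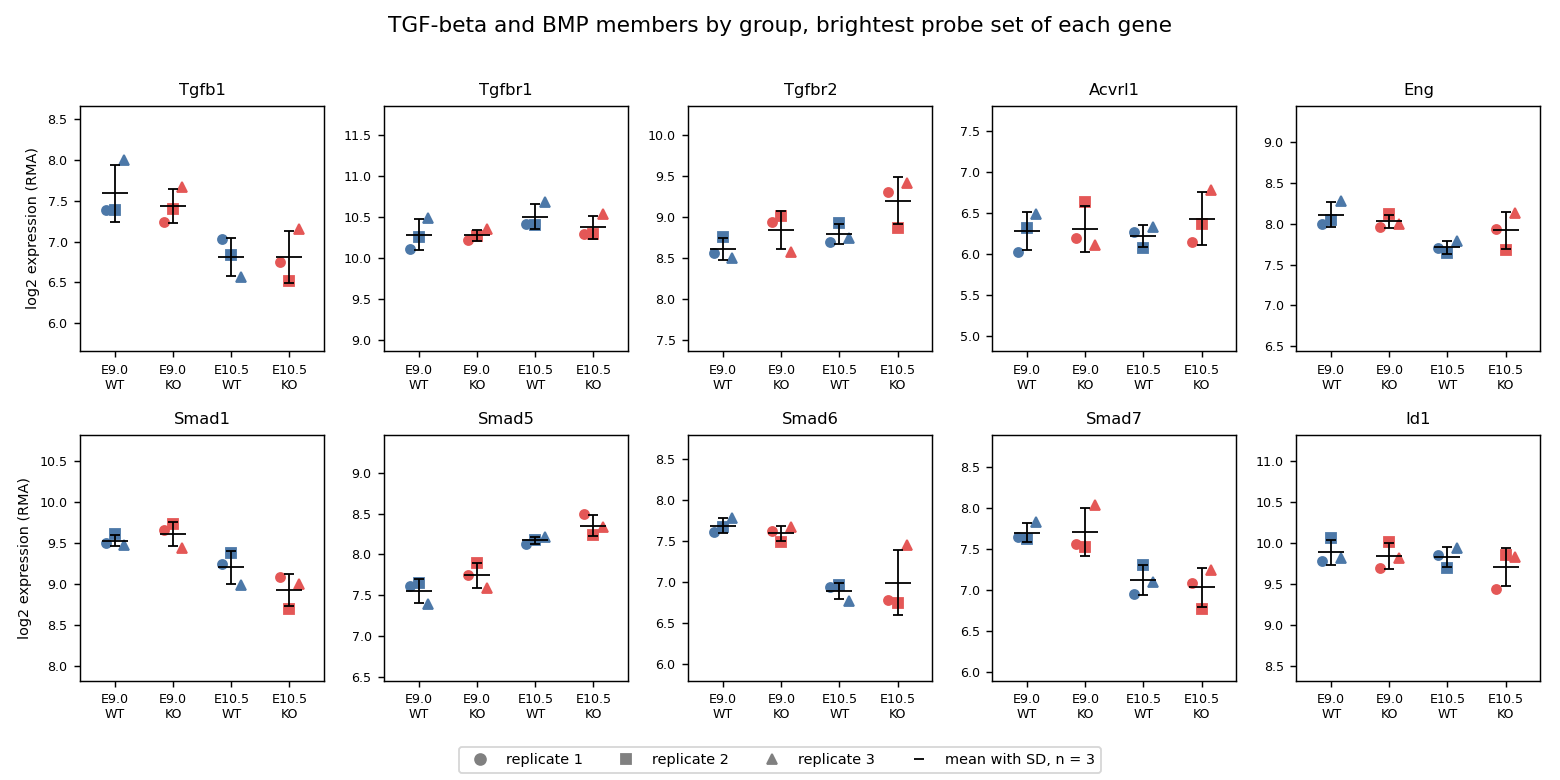
Log2 RMA value (vertical axis) of the brightest probe set of each of the 10 genes, by group; points are the 3 arrays of a group and black bars its mean and SD. Tgfb1, Smad6 and Smad7 lie lower at E10.5 than at E9.0 and Smad5 lies higher, while Tgfbr1 and Id1 differ little between the 4 groups.

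Tgfb1 encodes TGF-beta 1, the ligand made by endothelium and blood cells of the yolk sac. On probe set 1420653_at it read 7.38, 7.39 and 7.99 in the E9.0 wild type and 7.24, 7.40 and 7.66 in the E9.0 knockout. At E10.5 it read 7.03, 6.83 and 6.57 in the wild type and 6.75, 6.52 and 7.15 in the knockout. Every E10.5 array lay below every E9.0 array, and the genotypes overlapped at both stages. Group means ± SD over 3 arrays were, from high to low, 7.59 ± 0.35 (E9.0 wild type), 7.43 ± 0.21 (E9.0 knockout), 6.81 ± 0.23 (E10.5 wild type) and 6.81 ± 0.32 (E10.5 knockout). Tgfb1 fell by 0.78 with stage in the wild type (SE 0.20; 1.71-fold; adjusted p = 0.0236), by 0.46 within replicates 1 and 2 and by 1.42 in replicate 3. In the knockout the change was -0.63 (SE 0.20; adjusted p = 0.06), -0.69 from replicates 1 and 2 alone (adjusted p = 0.0093), with -0.51 from replicate 3. Limma also called this knockout change without E9.0 wild type array 3 (adjusted p = 0.0327) or E10.5 knockout array 3 (0.0206). So it did with only probe sets above the median (0.0427), with genes in place of probe sets (0.0379) and with the mean of its probe sets (-0.40; 0.0445). The knockout effect was -0.15 at E9.0 and -0.00 at E10.5, neither called. At E10.5 it came to -0.30 from replicates 1 and 2 alone and to 0.58 from replicate 3. The wild type call was lost without E9.0 wild type array 3 (-0.58), E10.5 array 2 (-0.79) or E10.5 array 3 (-0.66), with adjusted p between 0.0623 and 0.0984. The dim probe set 1445360_at, with a mean of 4.05, changed by -0.28 (adjusted p = 0.0579) and -0.17.

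Tgfbr1, the type I receptor kinase of TGF-beta, was read by 1420895_at at 10.11 to 10.68 over the 12 arrays. At E9.0 its means were 10.29 ± 0.19 in the wild type and 10.28 ± 0.07 in the knockout. At E10.5 the wild type ran from 10.41 to 10.68 and the knockout from 10.29 to 10.54, with an SD of 0.15 and 0.14. No neighbours in the order of these levels differed beyond the spread of their arrays, and the groups of both genotypes overlapped at both stages. The knockout effect was -0.01 at E9.0 (95% interval -0.27 to 0.26) and -0.13 at E10.5 (-0.39 to 0.14). From replicates 1 and 2 alone the knockout effects were 0.06 and -0.12, and replicate 3 gave -0.14 at both stages. The other probe sets, 1420894_at and 1420893_a_at, had means of 4.76 and 4.22, under the median probe set, and were not called in any comparison over all 12 arrays. From replicates 1 and 2 alone, however, 1420894_at was called for the stage change in the knockout (-0.79; adjusted p = 0.00903), where all arrays gave -0.17 and replicate 3 gave 1.07.

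Tgfbr2 encodes the type II receptor that binds TGF-beta and activates TGFBR1. On 1426397_at it read 8.56, 8.76 and 8.50 in the E9.0 wild type, 8.94, 9.01 and 8.57 in the E9.0 knockout, 8.70, 8.93 and 8.74 in the E10.5 wild type and 9.31, 8.87 and 9.42 in the E10.5 knockout. Knockout arrays 1 and 3 of E10.5 stood above all other arrays, and knockout array 2 lay within the wild type. The E10.5 difference of 0.41 (SE 0.16; 95% interval 0.07 to 0.75) was the 1 gene-level difference at an unadjusted p under 0.05 and was not called (limma, adjusted p = 0.213). Replicates 1 and 2 alone gave 0.28, and replicate 3 gave 0.68. The other probe sets gave 0.06 (1425444_a_at) and 0.08 (1422019_at), the latter near the floor with a mean of 2.72.

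Acvrl1 encodes ALK1, the type I receptor of endothelium that answers circulating BMPs. Over the 12 arrays 1435825_at read between 6.03 and 6.78, and group means were 6.28 ± 0.23 and 6.31 ± 0.28 at E9.0 and 6.22 ± 0.14 and 6.43 ± 0.32 at E10.5, in wild type and knockout. All of these groups overlapped, and 0.21 (95% interval -0.19 to 0.61) was the knockout effect at E10.5, 0.09 from replicates 1 and 2 alone and 0.45 from replicate 3. On 1451604_a_at the E9.0 wild type read 5.68, 5.79 and 6.07 and the E10.5 wild type 5.54, 5.51 and 5.22, groups that did not overlap, with a change of -0.42 that was not called (adjusted p = 0.118; -0.21 from replicates 1 and 2 alone and -0.85 from replicate 3). E10.5 knockout array 3 was the highest of its group on both probe sets, at 6.78 and 6.00.

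Eng encodes endoglin, the endothelial co-receptor that presents BMP and TGF-beta ligands to ACVRL1. On its brightest probe set, 1417271_a_at, it read 8.0, 8.05 and 8.28 in the E9.0 wild type and 7.70, 7.64 and 7.79 in the E10.5 wild type. The knockout read 7.96, 8.12 and 8.0 at E9.0 and 7.94, 7.68 and 8.13 at E10.5. Wild type arrays of E10.5 lay below all E9.0 arrays, whereas the knockout groups of the stages overlapped. Means ran from 8.11 ± 0.15 (E9.0 wild type) through 8.03 ± 0.08 (E9.0 knockout) and 7.92 ± 0.23 (E10.5 knockout) to 7.71 ± 0.08 (E10.5 wild type). Eng fell by 0.40 with stage in the wild type (SE 0.12; adjusted p = 0.0483), by 0.36 within replicates 1 and 2 (adjusted p = 0.0918) and by 0.49 in replicate 3. That call held in 8 of 21 alternative analyses. It was lost without any 1 of the wild type arrays of either stage (changes of -0.46 to -0.32, adjusted p up to 0.147), without any 1 of the E9.0 knockout arrays or E10.5 knockout array 1 (-0.40, adjusted p up to 0.0643), after median centring (adjusted p = 0.082) and with an intensity trend in the prior variance (adjusted p = 0.0602).

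The other Eng probe set, 1432176_a_at, read 6.64, 6.72 and 6.54 in the E9.0 wild type and 6.72, 6.53 and 6.76 in the E9.0 knockout. At E10.5 it read 5.99, 5.88 and 5.48 in the wild type and 6.33, 6.25 and 6.54 in the knockout. The E10.5 wild type arrays lay below all arrays of the other groups. It fell by 0.85 with stage in the wild type (SE 0.14; 1.80-fold; adjusted p = 0.00175), by 0.75 within replicates 1 and 2 and by 1.06 in replicate 3, and this call held in all 19 alternatives that could be run. In the knockout the change was -0.30 (adjusted p = 0.182). At E10.5 the probe set was higher in the knockout by 0.59 (SE 0.14; 1.51-fold; adjusted p = 0.0344), where 1417271_a_at gave 0.21 (adjusted p = 0.468). With the replicate block the adjusted p of 1432176_a_at was 0.0639. Replicates 1 and 2 alone gave a difference of 0.36 (adjusted p = 0.109), and replicate 3 gave 1.06. The call was also lost without E10.5 knockout array 1 or 3 (0.61 and 0.51), without E10.5 wild type array 2 or 3 (0.64 and 0.44), without E9.0 knockout array 1 or E9.0 wild type array 1 or 2 (0.59, adjusted p up to 0.0525), with median centring (0.56, adjusted p = 0.052) and with only the E10.5 groups in the fit (adjusted p = 0.131). The difference between stages in the knockout effect was 0.55 (limma, unadjusted p = 0.014, adjusted p = 0.606).

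Smad1 encodes a BMP carrier SMAD, and its 3 probe sets did not move alike. The brightest, 1459843_s_at, read 9.50, 9.61 and 9.48 in the E9.0 wild type, 9.66, 9.73 and 9.44 in the E9.0 knockout, 9.24, 9.38 and 8.99 in the E10.5 wild type and 9.08, 8.70 and 9.0 in the E10.5 knockout. All E10.5 arrays lay below all E9.0 arrays. The fall was called in the knockout, by 0.68 (SE 0.13; 1.61-fold; adjusted p = 0.00506; 0.81 within replicates 1 and 2 and 0.44 in replicate 3), in all 21 alternatives. In the wild type it was -0.33 (adjusted p = 0.129), and the difference between these stage changes, -0.36, was not called (adjusted p = 0.793). Probe set 1416081_at read 8.43, 8.33 and 8.90 in the E9.0 wild type and 7.37, 7.66 and 7.14 in the E10.5 wild type. In the knockout it read 8.31, 8.51 and 8.85 at E9.0 and 7.89, 7.58 and 7.51 at E10.5. It fell by 1.16 in the wild type (SE 0.19; 2.24-fold; adjusted p = 0.00195) and by 0.90 in the knockout (1.86-fold; adjusted p = 0.00823), both in all 19 alternatives run, and its stages did not overlap in either genotype. Within replicates 1 and 2 these falls were 0.87 and 0.68, and in replicate 3 they were 1.76 and 1.34. The third, 1448208_at, changed by -0.08 and -0.26, neither called. Knockout effects at E10.5 were -0.28, 0.27 and -0.14 on 1459843_s_at, 1416081_at and 1448208_at, none called.

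Smad5, the BMP carrier SMAD needed for yolk sac vessels, was the member that rose with stage. Probe set 1433641_at read 7.62, 7.65 and 7.39 in the E9.0 wild type, 7.75, 7.90 and 7.59 in the E9.0 knockout, 8.13, 8.18 and 8.21 in the E10.5 wild type and 8.49, 8.24 and 8.33 in the E10.5 knockout. Every E10.5 array lay above every E9.0 array, and the knockout arrays of E10.5 above those of the wild type. It rose by 0.62 in the wild type (SE 0.11; 1.54-fold; adjusted p = 0.00332) and by 0.61 in the knockout (SE 0.11; 1.52-fold; adjusted p = 0.00383). Within replicates 1 and 2 these rises were 0.52 and 0.54, and in replicate 3 they were 0.82 and 0.74. The knockout effect was 0.19 at E9.0 and 0.18 at E10.5 (95% interval -0.06 to 0.42), neither called. The other probe sets did not rise with stage in the wild type: 1451873_a_at changed by 0.07 and 1421047_at by -0.43 (adjusted p = 0.151), and the mean of the 3 probe sets changed by 0.09 (adjusted p = 0.633).

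On 1451873_a_at Smad5 read 6.28, 6.50 and 6.55 in the E10.5 wild type and 7.10, 7.12 and 7.05 in the E10.5 knockout. At E9.0 it read 6.36, 6.61 and 6.14 in the wild type and 6.86, 6.90 and 6.39 in the knockout. The genotypes were apart at E10.5 and overlapped at E9.0. It was higher in the knockout at E10.5 by 0.65 (SE 0.15; 1.57-fold; adjusted p = 0.0369), by 0.72 within replicates 1 and 2 (adjusted p = 0.0172) and by 0.50 in replicate 3. With the replicate block the adjusted p was 0.0111. The call was lost without E9.0 wild type array 1 (0.65), E10.5 knockout array 1 or 2 (0.64 and 0.63) or E10.5 wild type array 1, 2 or 3 (0.57, 0.68 and 0.70), with adjusted p up to 0.148, and it held in 15 of 21 alternatives. At E9.0 the difference was 0.35 (limma, adjusted p = 0.499), and the change between stages in this effect was 0.30 (adjusted p = 0.889). Probe set 1421047_at read 5.81, 6.19 and 5.96 in the E10.5 wild type and 6.92, 6.73 and 6.14 in the knockout, where array 3 lay within the wild type. Its difference of 0.61 was not called (adjusted p = 0.0967), nor with a fixed replicate block (0.0821), but was called with the replicate block as a random effect (0.0497), with a batch term for replicate 3 (0.0459), within replicates 1 and 2 (0.83; 0.0181) and without knockout array 3 (0.84; 0.00794). The mean of the 3 probe sets was higher in the E10.5 knockout by 0.48 (SE 0.11; adjusted p = 0.0205).

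**Figure D2:**
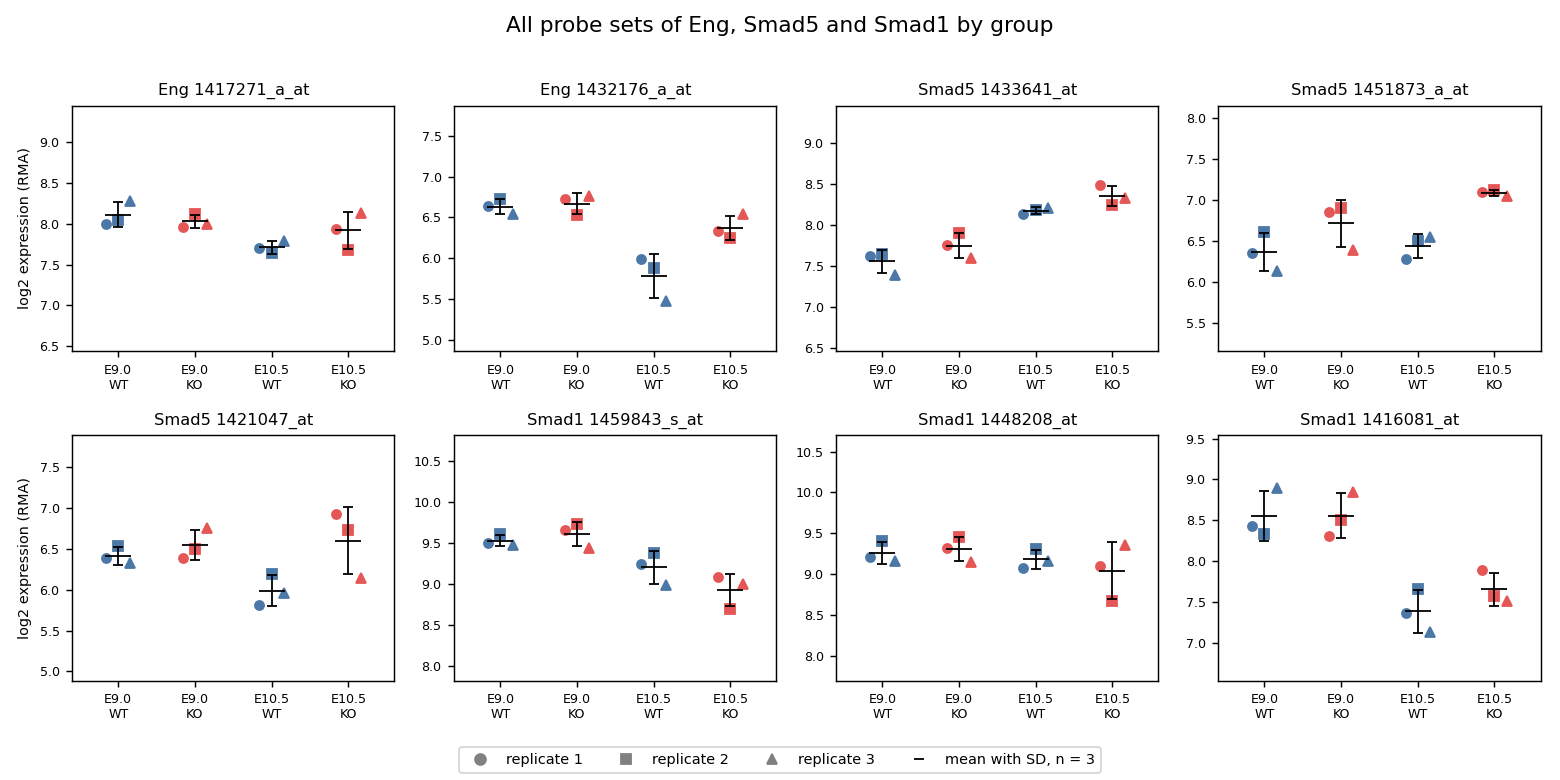
Log2 RMA value (vertical axis) of each probe set of Eng, Smad1 and Smad5, by group; points are arrays and black bars group means with SD. Eng 1432176_a_at and Smad5 1451873_a_at separate the genotypes at E10.5, by 0.59 and 0.65, and so does Smad5 1433641_at, by 0.18 (not called). Smad1 1416081_at, Smad1 1459843_s_at and Smad5 1433641_at separate the stages in both genotypes.

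Smad6 encodes the inhibitory SMAD that mainly blocks BMP signals and is strong in embryonic vessels. Probe set 1422771_at read 7.61, 7.67 and 7.78 in the E9.0 wild type and 7.62, 7.49 and 7.67 in the E9.0 knockout. At E10.5 it read 6.93, 6.96 and 6.77 in the wild type and 6.78, 6.74 and 7.45 in the knockout. All E10.5 arrays lay below all E9.0 arrays, and knockout array 3 stood well above the other knockout arrays of that stage. Means fell from 7.69 ± 0.09 and 7.59 ± 0.09 at E9.0 to 6.89 ± 0.10 and 6.99 ± 0.40 at E10.5, in wild type and knockout. Smad6 fell by 0.80 with stage in the wild type (SE 0.16; 1.74-fold; adjusted p = 0.00644), by 0.70 within replicates 1 and 2 and by 1.01 in replicate 3, and this call held in all 21 alternatives. It fell by 0.60 in the knockout (SE 0.16; 1.52-fold; adjusted p = 0.0264), by 0.80 within replicates 1 and 2 and by 0.22 in replicate 3. The knockout call was lost without E9.0 knockout array 1 or 3 (-0.59 and -0.57) or E10.5 knockout array 1 or 2 (-0.50 and -0.48), with adjusted p up to 0.105, and with only the knockout groups in the fit (adjusted p = 0.103). The knockout effect was -0.09 at E9.0 and 0.10 at E10.5, neither called. At E10.5 it came to -0.19 from replicates 1 and 2 alone and to 0.68 from replicate 3.

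Smad7, the inhibitory SMAD that blocks both TGF-beta and BMP receptors, read 7.65, 7.62 and 7.83 in the E9.0 wild type and 6.95, 7.31 and 7.10 in the E10.5 wild type on 1423389_at. The knockout read 7.56, 7.52 and 8.04 at E9.0 and 7.09, 6.77 and 7.24 at E10.5. The stages did not overlap in either genotype, and the genotypes overlapped at both stages. Smad7 fell by 0.58 in the wild type (SE 0.16; 1.49-fold; adjusted p = 0.0323; 0.51 within replicates 1 and 2, adjusted p = 0.0576; 0.73 in replicate 3). In the knockout it fell by 0.67 (SE 0.16; 1.59-fold; adjusted p = 0.0159; 0.61 and 0.80). The wild type call was lost without any 1 of the E9.0 wild type arrays (-0.62 to -0.52) or E10.5 wild type array 1 or 3 (-0.50 and -0.57), with adjusted p up to 0.118. The knockout call was lost without E9.0 knockout array 3 (-0.51) or E10.5 knockout array 2 (-0.54), with adjusted p up to 0.0663, and with only the knockout groups in the fit (adjusted p = 0.0635). Knockout effects were 0.01 at E9.0 and -0.09 at E10.5. The dimmer probe set 1443771_x_at, with a mean of 5.33, changed by -0.23 with stage in each genotype and was not called.

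Id1, a target gene switched on by BMP carrier SMADs that restrains differentiation, differed little between groups. Probe set 1425895_a_at read between 9.44 and 10.06 over the 12 arrays, with means of 9.89 ± 0.15 and 9.84 ± 0.16 at E9.0 and 9.83 ± 0.12 and 9.71 ± 0.23 at E10.5, in wild type and knockout. The 4 groups overlapped. The knockout effect was -0.04 at E9.0 (95% interval -0.34 to 0.25) and -0.13 at E10.5 (-0.42 to 0.17), and the stage changes were -0.05 and -0.14. At E10.5 the knockout effect was -0.14 from replicates 1 and 2 alone and -0.11 from replicate 3. Id3, a related target gene, behaved otherwise: it fell by 0.95 with stage in the wild type and by 0.83 in the knockout (adjusted p = 0.000685 and 0.00165), by 0.89 and 0.88 in replicates 1 and 2 alone and by 1.09 and 0.73 in replicate 3. The difference between the Id1 and Id3 changes was not tested.

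**Figure D3:**
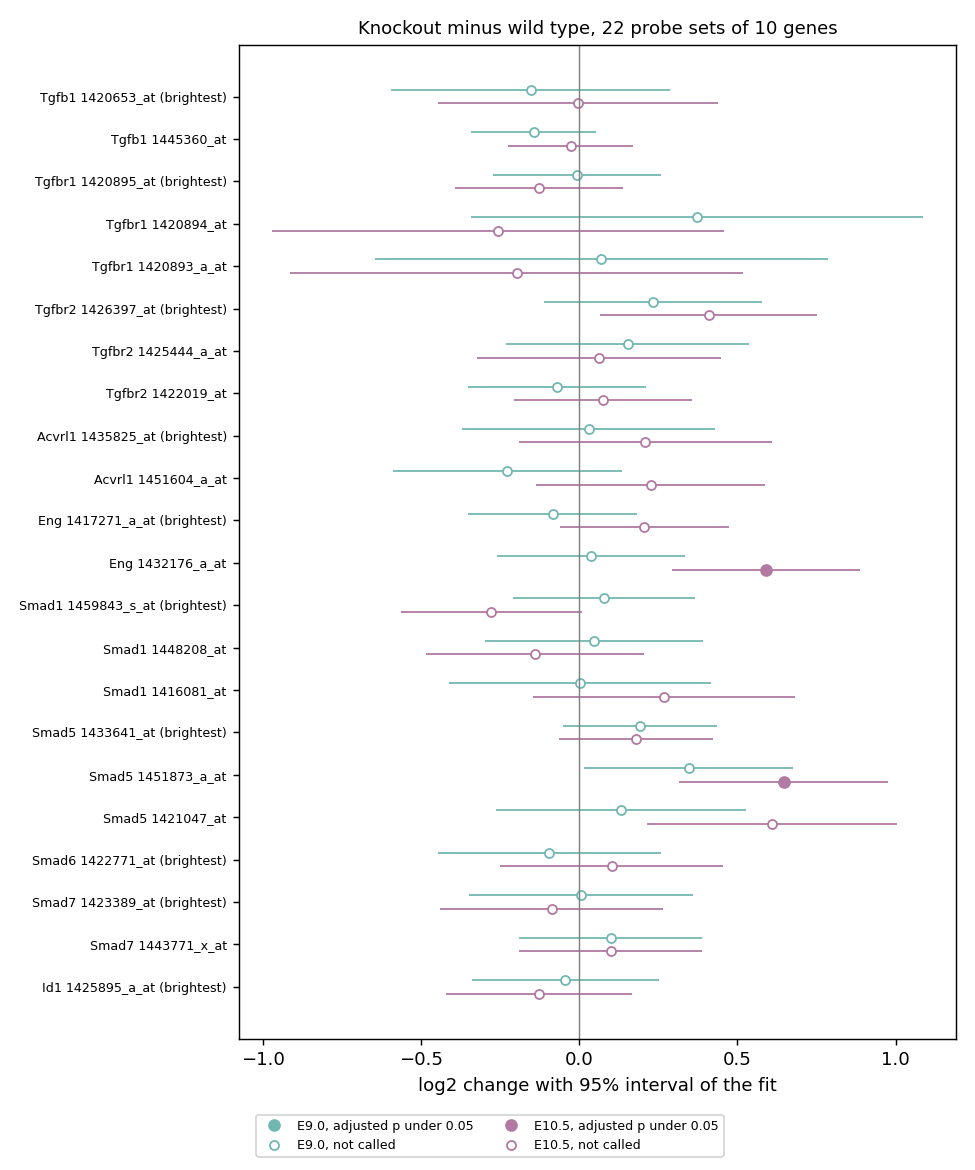
Log2 change, knockout minus wild type (horizontal axis), of the 22 probe sets at E9.0 and E10.5, with 95% intervals of the limma fit; filled points have an adjusted p under 0.05. Of the 22 probe sets 0 are filled at E9.0 and 2 at E10.5.

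**Figure D4:**
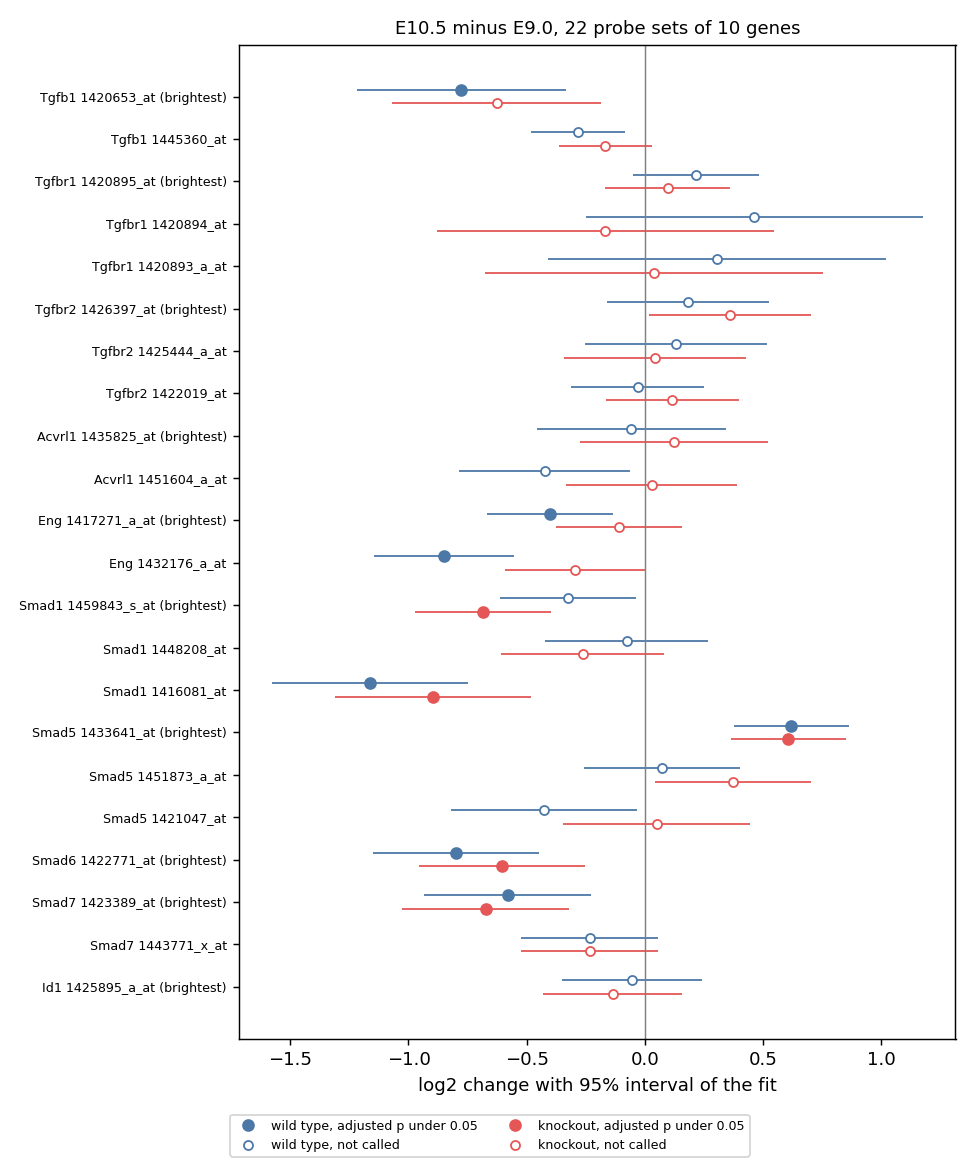
Log2 change, E10.5 minus E9.0 (horizontal axis), of the 22 probe sets in wild type and knockout, with 95% intervals of the limma fit; filled points have an adjusted p under 0.05. Probe sets of Tgfb1, Eng, Smad1, Smad6 and Smad7 lie to the left of 0 where filled, and 1433641_at of Smad5 lies to the right in both genotypes.

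Of 62 other genes of TGF-beta and BMP signalling, 61 were measured, and 53 of these had a mean above the median probe set. This list too was chosen with earlier results of these data known. At E9.0 none of the 61 was called between genotypes (0 at adjusted p under 0.05 by limma, where 0.539% of all genes were called), with a median of 0.06. At E10.5, 5 were higher and 1 lower in the knockout, with a median of 0.12 against -0.01 for all genes (of which 5.18% were called, 2.95% higher and 2.23% lower). Those that rose were all among the 15 measured target genes. Of these 15, however, 10 were not called and only 9 changes were above 0, with a median of 0.08. Called were 0 of 8 receptors, 0 of 4 other SMADs, 0 of 11 extracellular and 0 of 11 intracellular regulators. For the difference between stages 0 of 61 were called, where 0.0934% of all genes were.

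Ccn2, which encodes the matricellular connective tissue growth factor, read 7.66, 7.63 and 7.38 in the E10.5 wild type and 9.50, 9.48 and 10.02 in the knockout. It was higher by 2.11 (SE 0.27; 4.32-fold; adjusted p = 0.0014), by 1.85 within replicates 1 and 2 and by 2.64 in replicate 3. Tgfbi, which encodes a secreted matrix protein, read 7.85, 7.87 and 7.89 against 9.36, 8.68 and 9.72, a rise of 1.38 (SE 0.20; adjusted p = 0.00323). These groups lay apart for both genes, and the other 3 Tgfbi probe sets gave 1.28 to 1.47, all called. The smooth muscle genes Tagln and Acta2 rose by 1.02 (adjusted p = 0.0279) and 0.76 (adjusted p = 0.015). Acta2 had 3 probe sets and was read on the brightest, and over 23 alternatives its rise ran from 0.53 to 0.89. Msx2, a homeobox target of BMP, rose by 0.78 (adjusted p = 0.00467), and its other probe set gave 0.08. Within replicates 1 and 2 these rises were 1.16 for Tgfbi, 0.72 for Tagln, 0.57 for Acta2 and 0.76 for Msx2. In replicate 3 they were 1.83, 1.62, 1.15 and 0.83. Tagln lost its call without any 1 of the E10.5 wild type arrays (adjusted p up to 0.107), and Acta2 without E10.5 knockout array 1 or wild type array 2 or 3 (adjusted p up to 0.0672). Both also lost it with only the E10.5 groups in the fit (adjusted p = 0.0882 and 0.0668).

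Bmp7, a BMP ligand, was the pathway gene that fell in the E10.5 knockout. It read 7.47, 7.64 and 7.57 in the wild type and 6.44, 6.39 and 6.85 in the knockout, groups well apart, and fell by 1.00 (SE 0.20; adjusted p = 0.0165), by 1.14 within replicates 1 and 2 and by 0.72 in replicate 3. Its other probe sets gave -1.04 (adjusted p = 0.044) and -0.65 (adjusted p = 0.071). The call of 1418910_at was lost without E10.5 knockout array 1 or 2 or wild type array 2 or 3, with changes between -0.99 and -0.92 and adjusted p up to 0.0732. Bmper, a secreted BMP regulator named here after its value was seen, gave 1.29 (SE 0.96; adjusted p = 0.595).

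**Figure D5:**
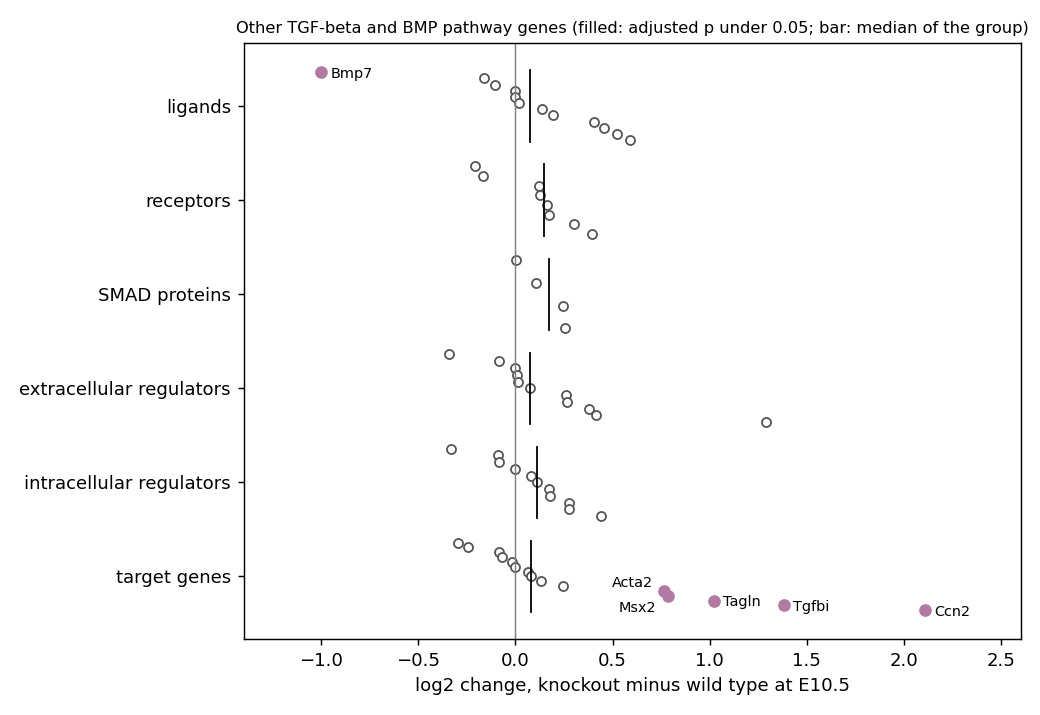
Log2 change, knockout minus wild type at E10.5 (horizontal axis), of the 61 other pathway genes by role; each point is a gene on its brightest probe set, filled points have an adjusted p under 0.05 and black bars are medians of a role. Ccn2, Tgfbi, Tagln, Acta2 and Msx2 are higher in the knockout and Bmp7 is lower.

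With stage, 6 of the 61 other pathway genes rose and 10 fell in the wild type, with a median of -0.05, and 7 rose and 5 fell in the knockout, with a median of 0.05. Of all genes 19.3% were called in the wild type (11.9% higher, 7.34% lower) and 19.8% in the knockout (12.5% higher, 7.38% lower), so the 12 of 61 in the knockout lay at that share. Bambi, a decoy receptor that dampens the signal, read 8.13, 8.27 and 8.27 in the E9.0 wild type and 9.19, 9.11 and 9.10 in the E10.5 wild type. It rose by 0.91 in the wild type and by 1.06 in the knockout (adjusted p = 0.00011 and 4.8e-05), and the stages were far apart in both. Bmp6, a BMP ligand, read 8.16, 8.29 and 8.31 in the E9.0 wild type and 7.37, 7.31 and 6.99 at E10.5. It fell by 1.03 in the wild type and by 0.96 in the knockout (adjusted p = 0.000759 and 0.00123). Tgfbr3, the co-receptor betaglycan, fell by 0.65 and by 0.51 (adjusted p = 0.00621 and 0.0218). The latter change was -0.07 in replicate 3, and its call was lost without E9.0 or E10.5 knockout array 1 or 2 (adjusted p up to 0.0863) and with only the knockout groups in the fit (adjusted p = 0.101). From replicates 1 and 2 alone, the stage changes in wild type and knockout were 0.95 and 1.05 for Bambi, -0.89 and -0.98 for Bmp6 and -0.65 and -0.73 for Tgfbr3. From replicate 3 they were 0.83 and 1.08 for Bambi, -1.32 and -0.91 for Bmp6 and, in the wild type, -0.65 for Tgfbr3.

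In the wild type the SMAD repressor Skil rose by 0.67 (adjusted p = 0.00171) and the smooth muscle gene Tagln by 1.41 (adjusted p = 0.00169). Acvr2a, a type II receptor, rose by 0.46 there (adjusted p = 0.0118), while its other probe set gave -0.22. Ccn2 fell by 1.26 in the wild type (SE 0.27; adjusted p = 0.00834). In the knockout Tagln rose by 1.83 and Tgfbi by 1.66 (adjusted p = 0.00039 and 0.000369), and the BMP type I receptor gene Bmpr1a by 0.48 (adjusted p = 0.00318). Bmpr1a had 6 probe sets and was read on the brightest, and over 21 alternatives its rise ran from 0.28 to 0.56. The activin receptor gene Acvr1b fell by 0.54 in the knockout (adjusted p = 0.0233), a call lost without E9.0 or E10.5 knockout array 1 or 2 (adjusted p up to 0.0892) and with only the knockout groups in the fit (adjusted p = 0.0531). The change of Acvr2a lost its call without E10.5 wild type array 2 (0.41; adjusted p = 0.0509) and with the mean of its probe sets (0.12; adjusted p = 0.405). From replicates 1 and 2 alone the wild type changes were 0.62 for Skil, 1.46 for Tagln, 0.49 for Acvr2a and -1.36 for Ccn2, and the knockout changes 1.74 for Tagln, 1.41 for Tgfbi, 0.56 for Bmpr1a and -0.73 for Acvr1b. From replicate 3 they were 0.77, 1.32, 0.41 and -1.05 in the wild type and 2.00, 2.16, 0.33 and -0.17 in the knockout, in the same order.

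Markers of other cell types moved with some of these groups. The mean of the 14 endothelial markers per array ran from 7.67 to 7.86 in the E9.0 wild type, 7.79 to 8.01 in the E9.0 knockout, 7.25 to 7.60 in the E10.5 wild type and 7.66 to 8.14 in the E10.5 knockout. The groups of E10.5 did not overlap. There none of the 14 was called between genotypes (5.18% of all genes were), but all 14 changes were above 0, with a median of 0.45. Pecam1, the endothelial adhesion molecule CD31, gave 0.86 (adjusted p = 0.0767), Cdh5 0.66 (adjusted p = 0.184), Kdr 0.33 and Tek 0.15. From E9.0 to E10.5 in the wild type, Cdh5, Tek, Sox17 and Sox18 fell by 0.92, 0.70, 1.37 and 0.74 and Emcn rose by 0.78. So 4 of 14 were called lower and 1 higher, where 7.34% and 11.9% of all genes were. In the knockout Emcn rose by 1.34 and Icam2 by 0.71, 2 of 14, where 12.5% of all genes were called higher. There 0 of 14 fell, where 7.38% of all genes were called lower. The part of endothelial content in the changes of Eng, Smad5 and Tgfb1 was not tested.

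Of 12 markers of mesenchyme and smooth muscle, Acta2, Tagln and Vim were called higher in the E10.5 knockout, where 2.95% of all genes were. Vim was higher by 0.76 (limma, adjusted p = 0.00679), and Acta2 and Tagln are also among the pathway targets above. The list mean per array ran from 9.72 to 9.88 in the E10.5 wild type and 9.83 to 10.53 in the knockout, while Col1a1 gave -0.25. Heart muscle markers were higher as well: 3 of 8 were called, where 2.95% of all genes were called higher. Their list mean ran from 4.57 to 4.75 in the E10.5 wild type and 5.42 to 6.73 in the knockout, and Myl7 read 5.24, 4.93 and 5.12 against 9.33, 7.52 and 8.07. At E9.0 the heart list ran from 4.59 to 5.72 in the wild type and 4.52 to 4.88 in the knockout. With stage in the wild type, Col3a1, Tagln and Postn rose and Hand1 fell among the 12 mesenchyme markers, where 11.9% of all genes were called higher and 7.34% lower. In the knockout Col3a1, Acta2, Tagln and Postn rose, where 12.5% of all genes were called higher. Macrophage markers rose with stage in both genotypes, 7 of 8 in the wild type and 8 of 8 in the knockout, where 11.9% and 12.5% of all genes were called higher. The list means for primitive red blood cells were 10.99 to 11.12 in the E10.5 wild type and 10.20 to 11.01 in the knockout, those for visceral endoderm 12.54 to 12.60 and 12.31 to 12.48, those for platelets 7.95 to 8.27 and 7.34 to 7.79, those for trophoblast 5.35 to 5.76 and 5.92 to 6.89, and those for decidua 5.53 to 5.89 and 5.40 to 5.94. At E10.5 the genotypes were therefore apart in the list means of endothelium, heart muscle and trophoblast, higher in the knockout, and of visceral endoderm and platelets, lower in the knockout. Only 3 of 6 trophoblast markers were measured, and 1 had a mean above the median probe set. The platelet list was also apart at E9.0, at 6.31 to 6.76 in the wild type and 5.91 to 6.05 in the knockout. The E10.5 groups also differ in Ccn2, Tgfbi, Tagln, Acta2, Msx2, Bmp7, Eng 1432176_a_at and Smad5 1451873_a_at, and the part of these cell types in those results was not tested.

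The genes whose brightest probe set ran most like that of a member over the 12 arrays were sought among 11472 genes above the median probe set. For Tgfb1 these were Strn4, 5031439G07Rik and Zswim1, with Pearson r of 0.966, 0.966 and 0.963. For Eng they were Stx6, Zcchc3 and Plxnd1 (0.927, 0.925 and 0.923), and for Acvrl1 Prpf40b, Dll1 and Ccdc8 (0.891, 0.849 and 0.849). Id1 had the weakest best matches, Nat8f4, Pif1 and Ppp3r1 (0.823, 0.821 and 0.821). The median r over all candidates lay between -0.00 and 0.06 for these 4 members. The arrays share stages, genotypes and replicate batches, so these values describe the arrays only.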

How the data were processed

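Yolk sac RNA was measured on 12 arrays. The deposited table held 45101 probe sets as log2 values. Per the submitters' processing notes, the method was RMA, which brings all arrays to 1 distribution, so a change shared by all transcripts is removed, and it shrinks the changes of dim probe sets. Its version and settings are not given in the sources used here. Values ran from 2.03 to 14.49, array medians from 5.27 to 5.34, and Spearman correlations between arrays from 0.973 to 0.994.

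The 64 control probe sets were left out. The platform annotation gave 1 symbol to 34945 probe sets, several to 932 and none to 9160. A gene is read on its probe set with the highest mean. All 12 arrays and 45037 probe sets entered 1 limma model of group means (limma 3.58.1 in R 4.3.3), with empirical Bayes moderation (8 residual and 4.02 prior degrees of freedom), for 5 two-sided comparisons. Benjamini-Hochberg adjustment ran over all probe sets of a comparison, with a threshold of 0.05. The median SE over genes was 0.128. The fit was tested on simulated data.

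Named are all members, every called pathway gene in a comparison where 8 or fewer were called and otherwise the 4 with the smallest p in each direction, Setd2, 8 cell type markers and any called endothelial or mesenchymal marker, and the 3 genes most like Tgfb1, Acvrl1, Eng and Id1. The members and lists were chosen with earlier results of these data known.

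BioC exceeded BioB by 0.15 and 0.24 on the E9.0 replicate 3 arrays and by 1.70 to 1.86 on the other E9.0 arrays, and for the spiked dap RNA the 3' reading exceeded the 5' reading by 1.87 and 1.85 on the E10.5 replicate 3 arrays and by 1.23 to 1.44 on the other E10.5 arrays. From these controls alone, replicate 3 was taken as a batch of its own at each stage. BioC exceeded BioB by 1.83 and 1.70 on the E10.5 replicate 3 arrays, so the replicate 3 arrays of the stages were not alike. Arrays of the same number and stage deviated together, with correlations over 22516 probe sets of 0.186, 0.391 and 0.387 at E9.0 and 0.425, 0.105 and 0.541 at E10.5, all over 0.1, so the numbers of the labels were taken to pair knockout with wild type and a replicate block was fitted as an alternative. E9.0 knockout array 1 correlated more with wild type array 2 (0.361). At E10.5, knockout array 2 correlated more with wild type array 1 (0.318), and wild type array 2 more with knockout array 1 (0.217). The pairing by number is therefore uncertain for these arrays, and so are the values from the replicate block. Deviations were taken from group means, so a difference shared by replicate 3 alone would also make arrays 1 and 2 of both genotypes correlate. The correlations cannot show pairing beyond that batch. The other alternatives were a batch block, replicates 1 and 2 only, each array left out, median centring, a further quantile normalization, only probe sets above the median, genes in place of probe sets, the mean of a gene's probe sets, an intensity trend, and only the compared groups. A random replicate block was added after seeing the data.

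Probe sets measure different stretches of a transcript with different affinity, so levels were not compared between probe sets. Promoters were matched by symbol in a RefSeq table.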

Additional observations from a re-analysis of the deposited data

How the results depend on the processing

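Setd2 kept its call at both stages in all 23 alternatives. Of the members' values recomputed, 2280 in all, 240 calls were kept, 48 lost and 17 gained, and 118 uncalled values and 0 called values changed sign. Member genes called between genotypes at E10.5 numbered 0, and 2 with the mean of a gene's probe sets (Eng 0.40, adjusted p = 0.0269; Smad5 0.48). Member probe sets called at E10.5 numbered 2, and 3 with the batch block and with the random replicate block, and 1 with the replicate block, 1 with median centring, 1 with only the compared groups, and 0 to 2 without 1 array. The replicate block, which pairs arrays of the same number, changed no other call of a member. It and the batch block were fitted for the knockout comparisons and their difference only, since a fixed block within a stage gives no error between stages. Other pathway genes called at E10.5 numbered 6, and 3 to 6 without 1 array. For the difference between stages, pathway genes called numbered 0, and 1 within replicates 1 and 2 and 0 to 1 without 1 array. With stage in the wild type, member genes called numbered 5, and 3 within replicates 1 and 2 and 2 to 5 without 1 array, member probe sets 7 (4 to 8) and pathway genes 16 (10 to 16). With stage in the knockout they numbered 4 (2 with only the compared groups; 2 to 5 without 1 array), 5 (3; 3 to 6) and 12 (7; 8 to 18). The cause of these shifts was not tested.

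Over all probe sets the calls between genotypes at E9.0 numbered 183, and 322 with the replicate block, 611 with the random block, 482 with the batch block, 51 within replicates 1 and 2, 39 with only the compared groups and 38 to 255 without 1 array. At E10.5 they numbered 1640, and 2483, 2844, 3097, 2860, 700 and 757 to 2700 in the same order. For the difference between stages they numbered 24, and 51, 81, 46 and 88 with the first 4 of these, 4 with only probe sets above the median and 12 to 90 without 1 array. With stage they numbered 6463 in the wild type (3991 to 7690 without 1 array) and 6488 in the knockout (3774 with only the compared groups). Over genes alone, calls numbered 98, 942 and 17 for the knockout comparisons and their difference, and 215, 1325 and 34 where adjustment ran over genes, or 191, 1301 and 47 with means of probe sets. Median centring moved all probe sets by 0.03 or less.

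With 3 arrays a group, small changes cannot be called, dim probe sets are compressed by RMA, and RMA gives no detection call.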

Other observations

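Probe sets of a gene did not always move together. With stage in the wild type the change ran from -0.43 to 0.62 over the 3 probe sets of Smad5 and from -1.16 to -0.08 over those of Smad1. Between genotypes at E10.5 the Smad1 probe sets ran from -0.28 to 0.27 and those of Smad5 from 0.18 to 0.65, all above 0. Which transcripts these probe sets read was not analysed here.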
